A study of Mus musculus with 20 samples.

Results

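The cytosolic ribosomal protein genes encode the proteins of the large (Rpl) and small (Rps) subunits of the cytosolic ribosome. They were taken by name from a table of RNA-seq counts, as symbols made of Rpl or Rps and a number with an optional letter, together with Rplp0, Rplp1, Rplp2 and Rpsa. Names marked as pseudogenes and the Rps6 kinases were left out. The rule found 89 of 55866 genes, 53 of the large and 36 of the small subunit, of which 12 were paralogs or gene copies outside the usual set.

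The libraries came from Py8119 mammary tumors, a carcinoma line from the polyoma middle T antigen mouse model, grown in a mammary fat pad of female RiboTagEC mice. All mice were Rpl22HA/HA x Cdh5CreERT2 on a C57BL/6J background, received tamoxifen at 3 weeks of age (75 mg/kg for 5 days), and carried tumors implanted at 8 weeks. Mice were given 25 mg/kg of 6-3-A6, a mouse antibody against Notch4, or control mouse IgG intravenously over 10 days, starting at about 30 mm3 by the treatment notes and at 50 mm3 by the design text. For each of 5 control IgG and 5 6-3-A6 tumors, the supernatant of the tumor homogenate (input) and its anti-HA immunoprecipitate (IP) were sequenced, giving 20 libraries in 4 groups of 5. The study compared the treatments in 3 control IgG (replicates 2, 4 and 5) and 3 6-3-A6 (replicates 1, 3 and 4) IP libraries, after setting the others aside as outliers. The HA allele and the Cre were shared by both treatment groups, and the recombination they give was restricted to cells in which the Cdh5 promoter was active when tamoxifen was given.

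Ribosomal proteins are made in equal amounts for each ribosome, and their mRNAs are among the most abundant of a growing cell. Most of these mRNAs begin with a 5′ terminal oligopyrimidine (TOP) tract, through which mTORC1 and the RNA-binding protein LARP1 move them together between polysomes and untranslated particles. In RiboTag mice, Cre swaps the last coding exon of Rpl22 for a copy that carries an HA epitope, so that Rpl22, itself a gene of this set, supplies the handle for the IP. A lower level in IP than in input can come from a lower mRNA level in endothelial cells than in the rest of the tumor or from a smaller share of the mRNA on ribosomes. These cannot be told apart here, nor can fewer cells of a type and less RNA per cell.

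The region around the gene start shows where such a tract would lie. Windows of 30 bases, 15 before the RefSeq gene start and 15 from it on, were read on the strand of the gene from RefSeq promoter entries (GRCm38.p6) and searched for a run of at least 6 C or T. Of the 89 genes, 64 had an entry, and 39 of these (60.9%) held a run, against 8833 of 27025 genes (32.7%) with an entry. Among mitochondrial ribosomal protein genes the share was 34.8% (24 of 69). Of the members called lower in IP, 30 of 48 with an entry held a run, and of those tested and not called 5 of 9. The following windows are shown for Rps6, Rps27, the stalk genes Rplp0 and Rplp2, the tag gene Rpl22 (first of 2 entries), the gene with the lowest fold change in IP (Rpl39) and for paralogs that were not lower in IP by the test (Rpl22l1, Rpl39l and Rpl7l1), with runs in capitals.
Rps6 (chr4:86857353-86857382, minus strand): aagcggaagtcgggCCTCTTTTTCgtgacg
Rps27 (chr3:90213634-90213663, minus strand): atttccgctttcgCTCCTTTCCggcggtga
Rplp2 (chr7:141447636-141447665, plus strand): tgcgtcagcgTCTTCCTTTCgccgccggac
Rplp0 (chr5:115559452-115559481, plus strand): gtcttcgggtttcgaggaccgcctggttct
Rpl22 (chr4:152324421-152324450, plus strand): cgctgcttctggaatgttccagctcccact
Rpl39 (chrX:37085208-37085237, minus strand): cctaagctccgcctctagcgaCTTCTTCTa
Rpl22l1 (chr3:28805493-28805522, plus strand): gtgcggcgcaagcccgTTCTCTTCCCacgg
Rpl39l (chr16:10170213-10170242, plus strand): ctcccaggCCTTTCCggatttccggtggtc
Rpl7l1 (chr17:46782642-46782671, minus strand): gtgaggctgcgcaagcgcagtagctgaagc
Rpl7l1 had no run in this window, nor did Rplp0, either entry of Rpl22, Rpl5, Rpl11 or Rpsa, 5 genes called lower. The windows of Rpl22l1 and of Rps6 both held a run of 10 bases, although the first gene was not called lower in IP and the second was. RefSeq starts are annotated rather than measured in these tumors, and a run is a run of letters, not a mapped TOP tract.

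Total counts on genes lay between 11881214 and 26728205 per library. All 17 endothelial markers were higher in IP (median log2 fold change 4.36), with summed levels of 1280 to 7180 counts per 1000000 counts (CPM, with library totals scaled by TMM factors throughout) in IP and 216 to 334 in input. Of 12 tested macrophage markers, 9 were lower in IP (median -0.83), and the sum over the list was 3460 to 9180 CPM there, against 6800 to 16300 in input. The description lines of the 10 6-3-A6 libraries name the opposite fraction from their titles and source names. The titles were followed, and every library titled as an IP had a higher endothelial sum than every library titled as an input. The library of 6-3-A6 input 4 stood apart. It had 38.2% of its counts on mitochondrially encoded genes (6.90% to 17.2% in the other inputs), and among the 10 inputs it held the lowest level of 43 of the 78 tested ribosomal protein genes and the highest of 8. Control IgG IP 1 held the highest level of 62 of the 78 among the 10 IP libraries, and control IgG IP 5 the lowest of 56. Control IgG IP 4 had 11.3% of its counts on mitochondrially encoded genes (0.758% to 4.695% in the other 9 IPs) and an endothelial sum of 1560 CPM, and 6-3-A6 IP 2 had the lowest endothelial sum, 1280 CPM. For genes named with values in IP against input, a call that ended without the tumor of one of these libraries is stated. Values without such a tumor are given for some genes and medians, not for all.

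Several genes were hardly counted. Of the 89 genes, 7 were at 0 counts in all 20 libraries, which in the library with the lowest scaled total, 6-3-A6 input 4, allows up to 0.315 CPM. Rpl35, Rpl24 and Rpl35a were 3 of these, and 98.7% to 100% of each gene was covered by other annotated genes, on the opposite strand for Rpl35 (Wdr38 and Arpc5l) and Rpl35a (Gm17106). The other 4 were the copies Rps4l, Rps12l1, Rpl32l and Rps3a3. Rps10 had 1 count in all libraries together, with 98.1% of its span covered. In contrast, Rpl13a had 19104 counts with 88.6% of its span covered and Rps28, of the small subunit, 54569 with 70.3% covered on the opposite strand. The part of the overlap in the low counts was not tested. Counts were made over whole gene spans, introns included, and 30 of the 89 genes hold snoRNA genes (59 in all). Named pseudogenes, 321 in number, took 27990 counts against 15344393 on the 89 genes.

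The cytosolic ribosomal protein genes took a smaller part of the counts in IP than in input. In control IgG tumors they held 6.88%, 7.49%, 4.94%, 5.00% and 4.04% of all counts in the input of tumors 1 to 5, and 5.48%, 3.25%, 3.03%, 4.64% and 2.15% in their IP. In 6-3-A6 tumors the shares were 5.49%, 4.44%, 6.06%, 2.97% and 7.46% in input and 3.17%, 2.19%, 3.76%, 3.95% and 3.22% in IP. The share was lower in the IP of 9 of 10 tumors, the exception being 6-3-A6 tumor 4, and the groups overlapped. With mitochondrially encoded genes left out of the total, the share was lower in the IP of all 10 tumors, with medians of 5.97% and 3.40% in control IgG input and IP and 6.15% and 3.38% in 6-3-A6 input and IP. No test was made on these sums.

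**Figure D1:**
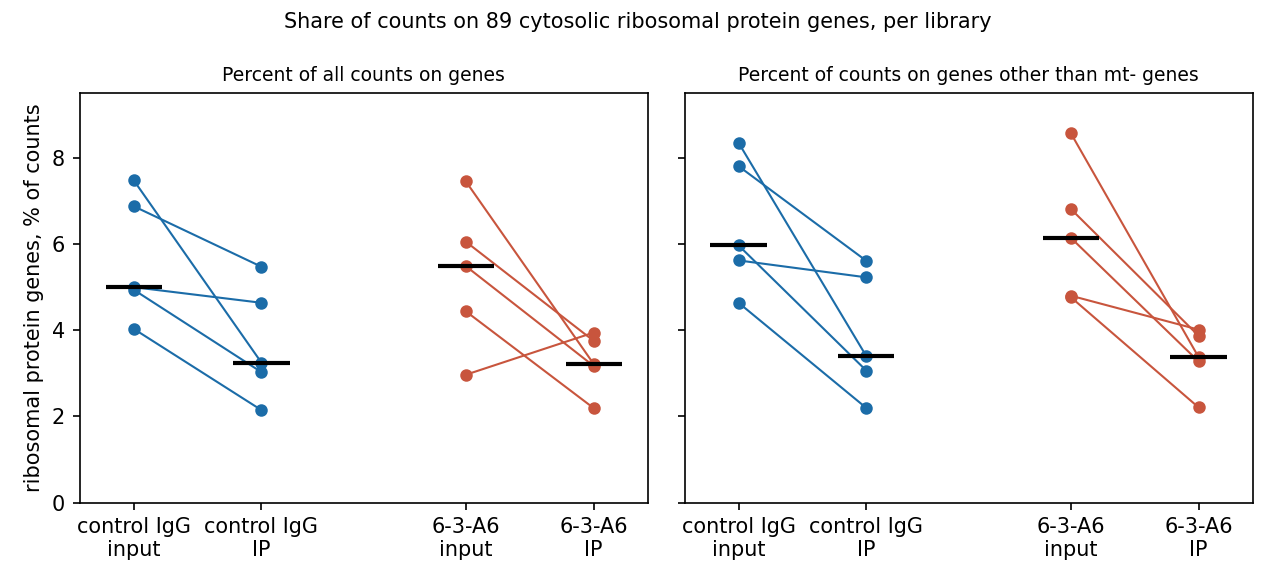
Percent of counts on the 89 genes in each library, of all counts on genes (left) and of counts outside mitochondrially encoded genes (right), with control IgG in blue and 6-3-A6 in red. Lines join the input and IP of a tumor and black bars are group medians; 1 line rises at left, that of 6-3-A6 tumor 4, and none at right.

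Gene by gene, ribosomal protein mRNAs were lower in IP than in input. Of 78 genes that passed the filter on low counts, 66 were called lower and 0 higher at an adjusted p under 0.05 (edgeR quasi-likelihood test over 20 libraries with treatment as a term, Benjamini-Hochberg over 14488 genes). Over all tested genes, 20.8% were called lower and 19.6% higher. The median log2 fold change was -0.78 for the 78 genes, which is a fold of 0.583, and -0.06 for all tested genes. By subunit, 39 of 47 large subunit genes (median -0.79) and 27 of 31 small subunit genes (median -0.75) were called lower. The 12 tested genes that were not called were Rps29, Rps14, Rps9, Rps15, Rpl18, Rpl37a, Rpl15, Rpl9, Rpl22l1, Rpl7, Rpl7l1 and Rpl39l, and 5 of them had an unadjusted p under 0.05 (49.6% of all tested genes had one). In 29 of the 78 genes the level was lower in the IP of each of the 10 tumors, against 9.97% of all tested genes.

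**Figure D2:**
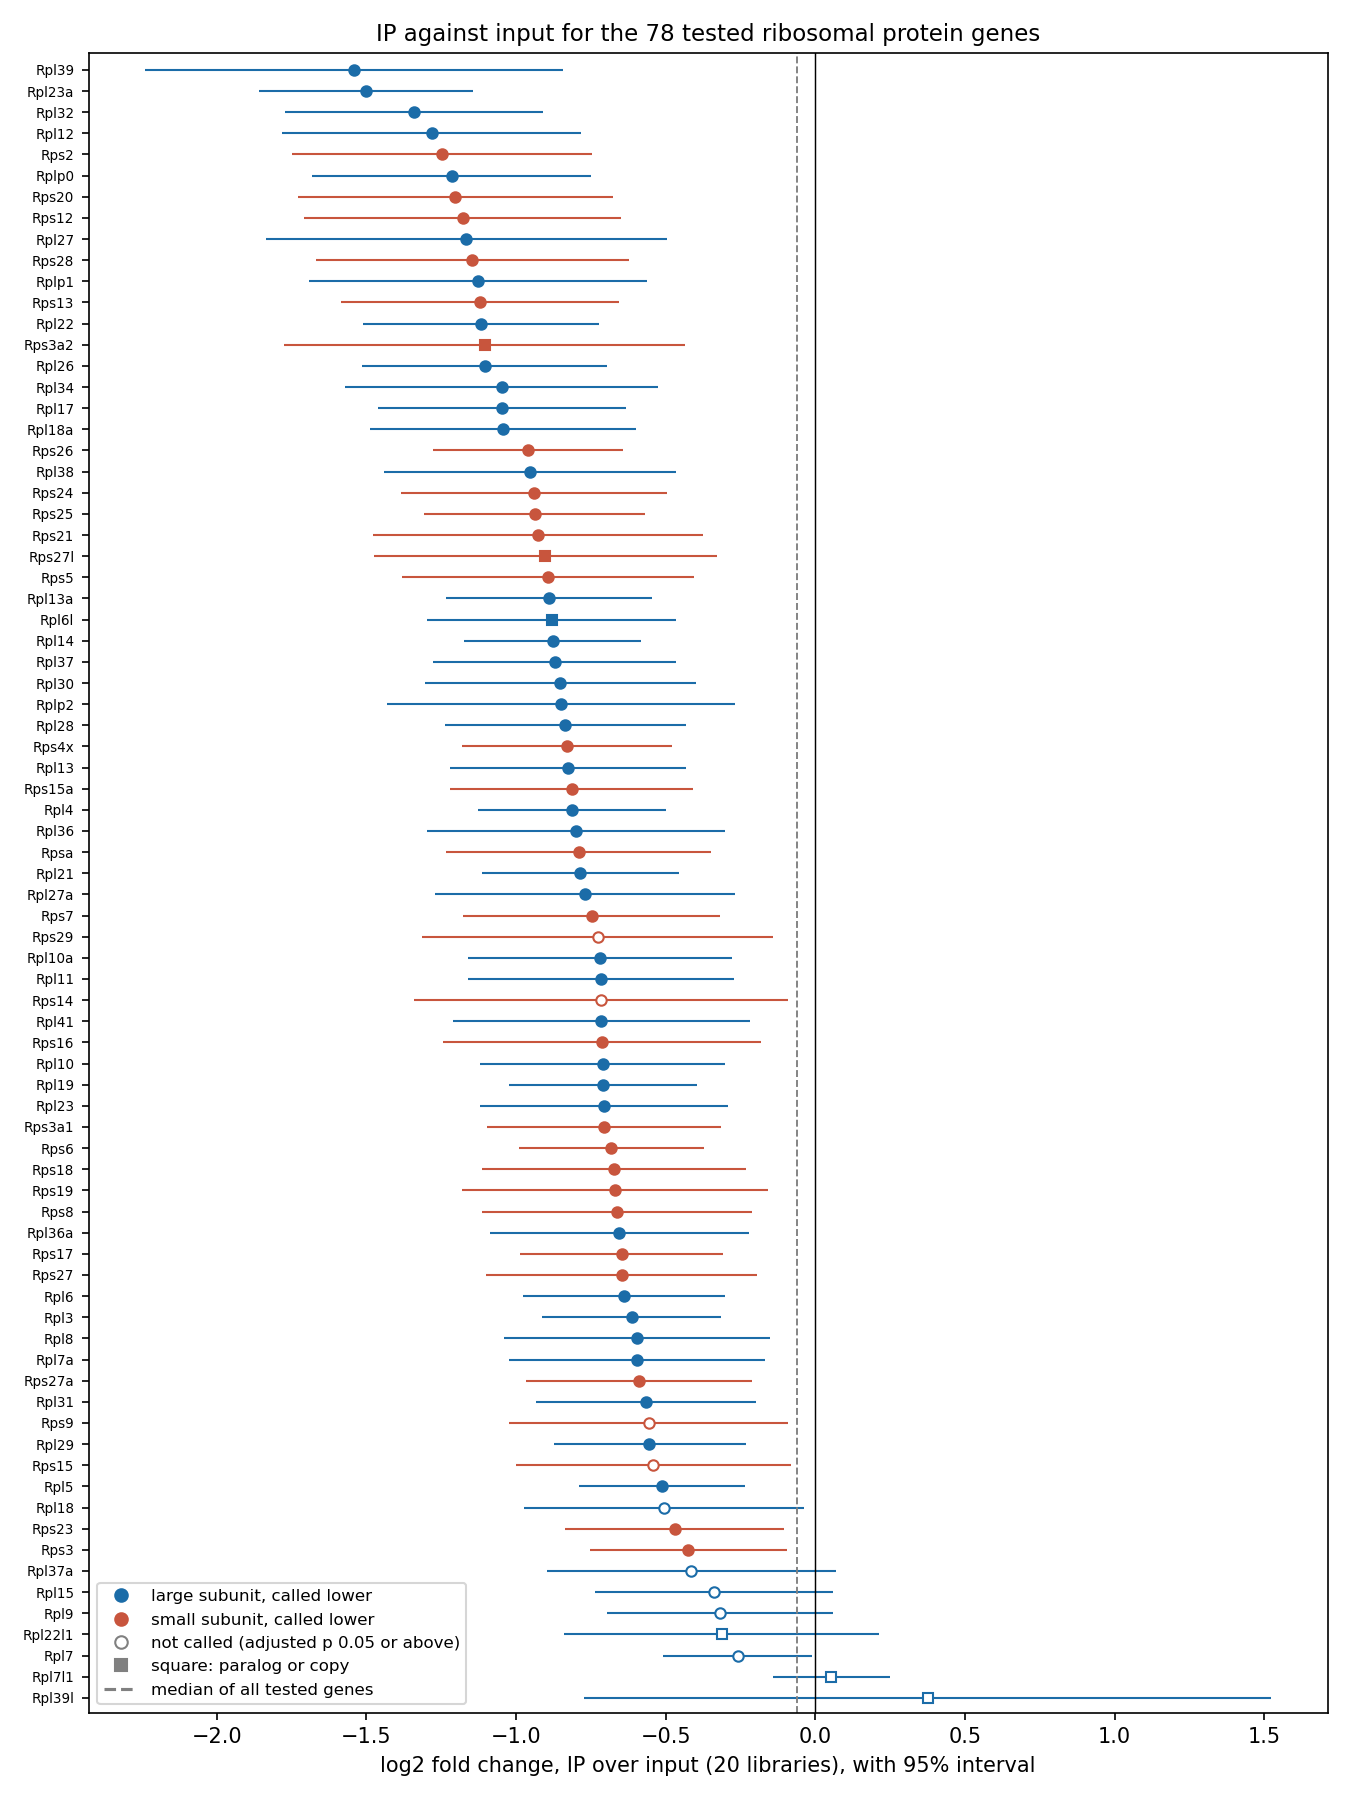
Log2 fold change of IP over input with its 95% interval for the 78 tested genes, ordered from the lowest; filled symbols mark the 66 genes called lower, squares mark paralogs and copies, and the dashed line is the median of all tested genes. All intervals but those of 6 genes at the bottom end below 0, and Rpl7l1 and Rpl39l have estimates above 0.

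Rpl22, the large subunit protein that carries the tag, was among the genes lowered most. Its level was 838, 736, 548, 516 and 432 CPM in control IgG inputs 1 to 5, and 472, 309, 263, 489 and 193 CPM in the matching IPs. In 6-3-A6 tumors it was 559, 435, 686, 1140 and 784 CPM in input and 264, 201, 315, 305 and 280 CPM in IP. The level was lower in the IP of 10 of 10 tumors, and the groups overlapped in control IgG, through IP 4 and IP 1, but not in 6-3-A6. The log2 fold change was -1.12 (SE 0.20, adjusted p = 0.000171, edgeR), with 12 of the 78 genes lower. The table counts reads over the whole gene, so tagged and untagged Rpl22 mRNA are counted together.

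Rpl22l1, the paralog that can take the place of Rpl22 and whose mRNA Rpl22 is known to repress, was not called. It was at 73.2, 59.3, 44.2, 42.3 and 36.4 CPM in control IgG input and at 107, 31.1, 27.2, 36.3 and 16.1 CPM in IP. In 6-3-A6 tumors it was at 56.2, 39.6, 35.1, 22.3 and 60 CPM in input and 26.7, 20.4, 45.7, 41.1 and 28.1 CPM in IP. Its groups overlapped in both treatments, it was lower in the IP of 7 tumors, and control IgG IP 1 was the highest of all 20 libraries. The log2 fold change was -0.31 (95% interval -0.84 to 0.21). Without control IgG tumor 1 it was -0.54, and Rpl22l1 was then called lower (adjusted p = 0.0431).

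The genes with the 5 lowest fold changes were Rpl39, Rpl23a, Rpl32, Rpl12 and Rps2. Rpl39, a very small protein of the wall of the peptide exit tunnel, was at 382, 422, 217, 197 and 162 CPM in control IgG input and 266, 107, 90.9, 185 and 53.9 CPM in IP. In 6-3-A6 tumors it was at 236, 161, 291, 1120 and 522 CPM in input and 96.9, 56.1, 138, 131 and 119 CPM in IP. It was lower in each IP than in the input of its tumor, with a log2 fold change of -1.54 (SE 0.36, adjusted p = 0.00179), and the value of 1120 CPM came from 6-3-A6 input 4, the library described above. Without that tumor the log2 fold change of Rpl39 was -1.21 (adjusted p = 0.00333), and Rpl23a, Rpl32, Rpl12, Rps2, Rplp0 and Rplp1 had lower values. Rpl23a, which lies at the tunnel exit where the signal recognition particle docks, was at 153 to 351 CPM in the 10 inputs and at 53 to 118 CPM in the 10 IPs. It was the only gene of the set whose 10 IP values all lay below its 10 input values, which held for 0.456% of all tested genes (log2 fold change -1.50, SE 0.18, adjusted p = 1.2e-06). Of the span of Rpl23a, 39.5% was shared with other annotated genes, most of it with Tlcd1 on the opposite strand.

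Rpl32, a large subunit protein, was at 680 to 2110 CPM in input and at 328 to 1090 CPM in IP, with a log2 fold change of -1.34 (SE 0.22). Rpl12, at the base of the stalk, had a log2 fold change of -1.28 (SE 0.26), and Rps2, near the entry of the mRNA channel, -1.25 (SE 0.26). Rpl12 and Rps2 were lower in the IP of 9 of 10 tumors, and the groups overlapped for all these genes other than Rpl23a.

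The acidic stalk of the large subunit, which recruits the elongation factor GTPases, is built of Rplp0, Rplp1 and Rplp2, and all 3 genes were called lower. Rplp0, its base, was at 2360, 2560, 2190, 1750 and 1510 CPM in control IgG input and 1130, 787, 652, 1580 and 510 CPM in IP. In 6-3-A6 tumors Rplp0 was at 2440, 1590, 2090, 597 and 2690 CPM in input and 819, 486, 999, 928 and 667 CPM in IP. In both treatments a single tumor made the groups overlap, with an IP nearly as high as its input in control IgG tumor 4 and an input below its IP in 6-3-A6 tumor 4. The log2 fold change was -1.22 (SE 0.24, adjusted p = 0.000404) for Rplp0, -1.13 (SE 0.29) for Rplp1 and -0.85 (SE 0.30) for Rplp2. Rplp2 was not called without control IgG tumor 2, 6-3-A6 tumor 1 or 6-3-A6 tumor 5, nor in the kept tumors.

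**Figure D3:**
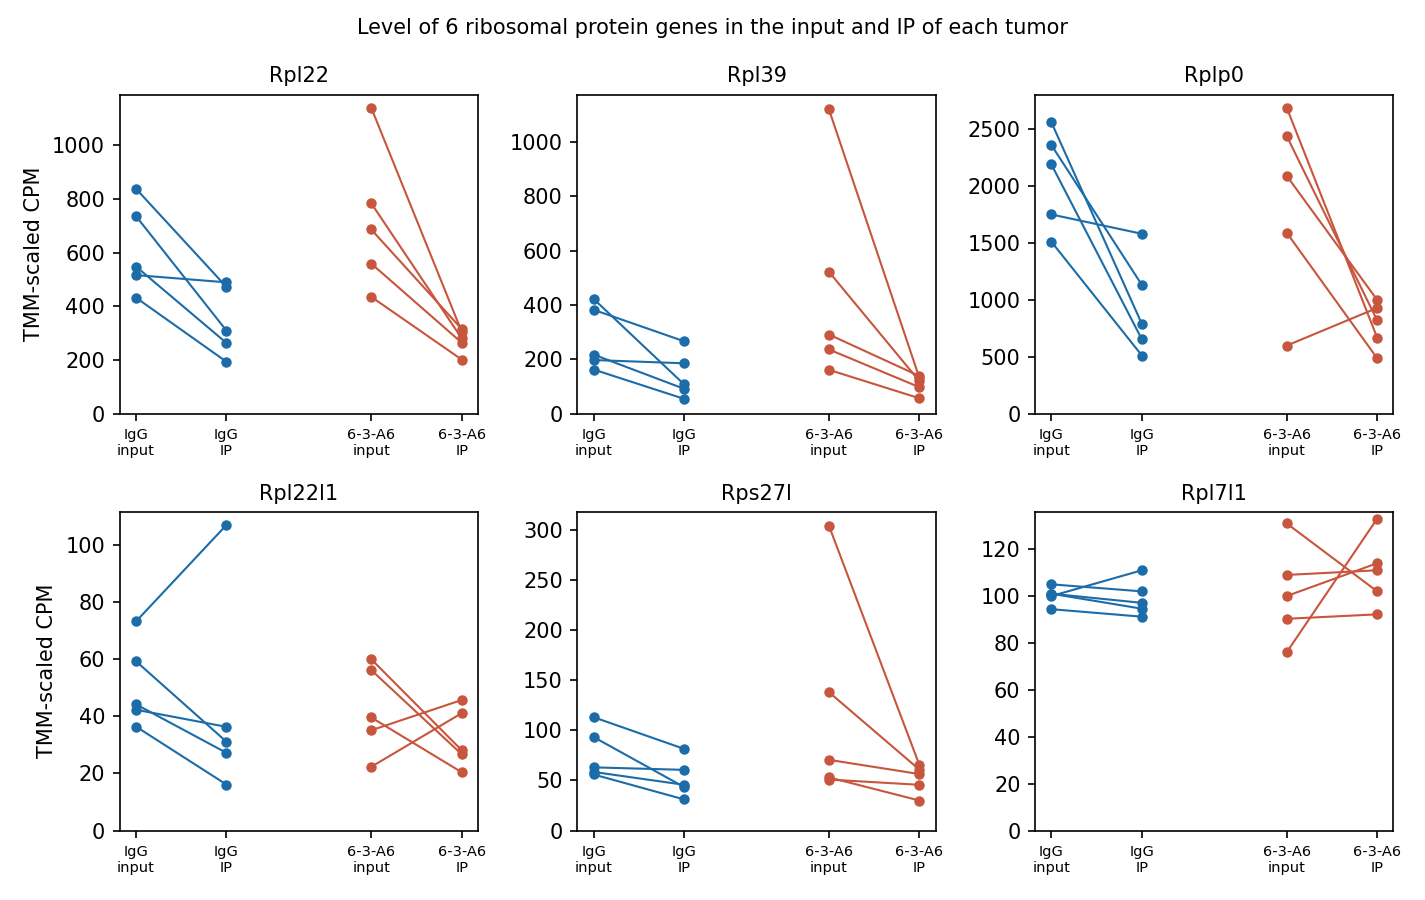
TMM-scaled CPM of 6 genes in the input and IP of each tumor, with control IgG in blue, 6-3-A6 in red and a line for each tumor. Rpl22 and Rpl39 fall in all 10 tumors, Rplp0 in 9, Rps27l in 10 and Rpl22l1 in 7, while Rpl7l1 lies between 76 and 133 CPM in both fractions.

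Rpl5 and Rpl11, which enter the ribosome with 5S rRNA and outside it bind Mdm2, the ubiquitin ligase of p53, were called lower, with log2 fold changes of -0.51 (SE 0.14) and -0.72 (SE 0.23). Rpl5 was lower in the IP of 10 tumors and Rpl11 in 9. Among small subunit genes, Rps6, the target of the S6 kinases, had a log2 fold change of -0.68 (SE 0.16, adjusted p = 0.00182) and was lower in the IP of 10 tumors. Rpsa, also known as the laminin receptor precursor, had a value of -0.79 (SE 0.23) and was lower in 9. Rps27a, made as a fusion with ubiquitin, had a value of -0.59 (SE 0.19). Of a list of 10 genes mutated in Diamond-Blackfan anemia, an inherited failure of red cell production, 8 could be tested. In the fit over all libraries 8 were called lower, with a median of -0.73. The share called lower was 66 of 78 in the whole set and 20.8% of all tested genes. The list is a selection and does not hold every gene of this disease. Rps19, the gene of this list best known in patients, was the nearest to the threshold, at a log2 fold change of -0.67 (SE 0.26, adjusted p = 0.0454). Its call was lost with DESeq2 size factors, with no filter, in the tumors kept by the study and without 8 of the 10 tumors in turn, and held without control IgG tumor 1 or 6-3-A6 tumor 4. Rpl11 and Rps27a were not called without control IgG tumor 2, Rps27a was not called with no filter, and neither of them nor Rpsa was called in the kept tumors.

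The genes with the 5 highest fold changes were Rpl39l, Rpl7l1, Rpl7, Rpl22l1 and Rpl9, and none of them was called. Rpl7l1, a relative of Rpl7 found in precursors of the large subunit, was at 105, 101, 100, 101 and 94.4 CPM in control IgG input and 102, 97.1, 111, 94.6 and 91.2 CPM in IP. In 6-3-A6 tumors Rpl7l1 was at 90.3, 100, 109, 76 and 131 CPM in input and 92.2, 114, 111, 133 and 102 CPM in IP. Its log2 fold change was 0.05 with a 95% interval of -0.14 to 0.25, narrower than that of any other gene of the set, and it was lower in the IP of 5 tumors. Rpl7 had a log2 fold change of -0.26 (95% interval -0.51 to -0.01, adjusted p = 0.106) and was called lower with the tumor as a block (adjusted p = 0.0431). Rpl9, a large subunit protein, had a log2 fold change of -0.32 (95% interval -0.70 to 0.06).

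Of the 12 paralogs and copies, 6 could be tested, with 3 called lower. Rps27l, the paralog of Rps27 that p53 activates, had a log2 fold change of -0.90 (SE 0.29, adjusted p = 0.018) and Rps27 itself, a zinc finger protein of the small subunit, -0.65 (SE 0.23, adjusted p = 0.0301). Rps27l was lower in the IP of 10 tumors, and its 6-3-A6 input 4, at 304 CPM, was the highest of 20 libraries. Without that tumor the log2 fold change of Rps27l was -0.59 (adjusted p = 0.0365), and in the tumors kept by the study it was -0.996, not called (adjusted p = 0.0668). The call of Rps27 was lost without 6 of the 10 tumors in turn, with no filter and in the kept tumors. The copies Rpl6l and Rps3a2 were also called lower, and these may share reads with Rpl6 and Rps3a1. Rps3a2 was at 0.513 to 3.99 CPM in input and 0.365 to 1.45 CPM in IP, and was not called in the tumors kept by the study. Rpl39l, a paralog best known from testis, was near the lower limit of detection, at 0.0566 to 2.17 CPM in input and 0.175 to 5.06 CPM in IP, with a log2 fold change of 0.38 (95% interval -0.77 to 1.52). The muscle paralog Rpl3l was at 0.501 CPM or less in all libraries, and Rpl10l, a testis paralog, had a count in a single library.

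Other genes of the translation machinery were taken as separate lists, and no test compared the lists. Of 7 elongation factor genes, 5 were called lower in IP (71.4%, against 20.8% of all tested genes). None was called higher (against 19.6%), and the median was -0.67. Eef1b2, a nucleotide exchange factor for eEF1A, and Eef1a1, eEF1A itself, had the lowest values (-1.05 and -0.81), and Eef2 and Eif5a the highest (-0.33 and -0.21, neither called). Of 9 tested other genes known for TOP mRNAs, 7 were called lower (77.8%, against 20.8% of all tested genes), with a median of -0.70. Tpt1, the translationally controlled tumor protein, stood lowest at -1.13 and Pabpc1, the poly(A)-binding protein, next at -0.88, while Nap1l1 (-0.34) and Hnrnpa1 (-0.21) were not called.

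The initiation factors, the assembly factors and the regulators had medians above 0, with members called in both directions. Of 26 initiation factor genes, 8 were called lower (30.8%, against 20.8% of all tested genes) and 2 higher (7.69%, against 19.6%), with a median of 0.03, from Eif3h (-1.04) and Eif3e (-0.80) to Eif4g1 (0.51, not called) and Eif3a (0.76), all but Eif4g1 subunits of eIF3. Of 39 ribosome biogenesis genes, 2 were called lower and 4 higher (median 0.13), from Nop10 (-0.78) and Polr1d (-0.52) to the RNA polymerase I subunits Polr1b (0.68) and Polr1a (1.09). Of 15 regulators of ribosomal protein mRNA translation, 1 was called lower, the 4E-binding protein gene Eif4ebp2 (-0.48), and 3 higher, among them the mTORC1 subunit gene Rptor (0.39) and Larp4 (0.69). Of 72 mitochondrial ribosomal protein genes, 20 were called lower (27.8%, against 20.8% of all tested genes) and 1 higher, with a median of -0.24.

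**Figure D4:**
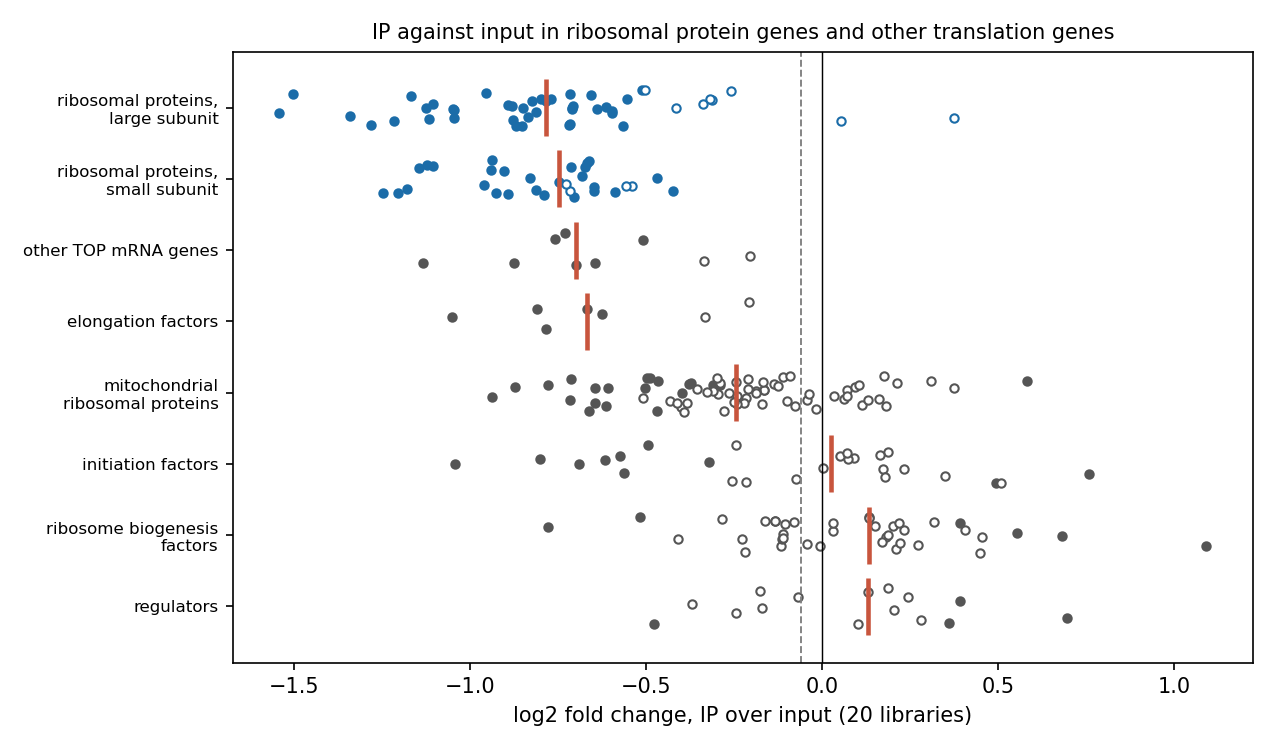
Log2 fold change of IP over input for the tested genes of each list, with filled points for genes at an adjusted p under 0.05, red bars for list medians and a dashed line for the median of all tested genes. The cytosolic ribosomal protein, TOP mRNA and elongation factor genes lie mostly below 0, with medians from -0.79 to -0.67, and the medians of the last 3 lists lie above 0.

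Ribosomal proteins are short, and other genes with short coding sequences also had a negative median log2 fold change. The coding length of 76 of the 78 genes had a median of 454.5 nt, against 1431 nt for 12682 other tested genes. Other genes with a coding length up to 1000 nt had a median log2 fold change of -0.24 (3832 genes) and longer ones 0.08 (8850 genes), while the 74 ribosomal protein genes up to that length had a median of -0.76. Across genes, which are not independent and share the libraries, the Spearman correlation of coding length and log2 fold change was 0.24 in the 76 and 0.30 in the others. The part of length in the result was not tested.

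The size of the difference varied among tumors. The median over the 78 genes of the log2 difference of IP and input was -0.36, -1.25, -0.95, -0.10 and -1.11 in control IgG tumors 1 to 5, and -0.93, -0.96, -0.77, 0.18 and -1.42 in 6-3-A6 tumors 1 to 5. Between 67 and 78 of the genes were lower in IP in 9 of the tumors and 38 in 6-3-A6 tumor 4. The median of the endothelial markers was 2.96 in control IgG tumor 4 and 5.04 in 6-3-A6 tumor 4, the 2 tumors with the ribosomal protein medians nearest to 0 or above it, and between 2.604 and 4.76 in the others. That of the macrophage markers ran from -1.22 to -0.31, with -0.31 in control IgG tumor 4. The part of other cell types in the result was not tested. Without 6-3-A6 tumor 4, 72 of 78 genes were called lower (median -0.83), against 19.5% of all tested genes. In the 6 tumors kept by the study 38 of 78 were (median -0.66), against 10.8% of all tested genes.

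Within each treatment the direction was the same. In control IgG tumors 10 of 78 genes were called lower and 0 higher, with a median of -0.69 (3.1% of all tested genes were called lower and 8.28% higher), and in 6-3-A6 tumors 41 of 78 were called lower and 0 higher, with a median of -0.83 (13.5% and 12.8% of all tested genes). The 10 genes in control IgG were Rpl23a, Rpl32, Rps2, Rplp0, Rpl12, Rpl26, Rps26, Rps25, Rpl13a and Rpl14. With the tumor as a block, since the input and IP came from the same supernatant, the counts were 43 and 49 of 78, while the share of all tested genes called lower was 9.73% in control IgG and 19.5% in 6-3-A6. Tumors were left out in turn only in the fit without the block. In that fit the count in control IgG rested on single tumors. It was 1 gene without control IgG tumor 2 or 3 (0.56% and 0.332% of all tested genes), 3 without tumor 5 (0.983%) and 5 without tumor 1 (0.95%). It was 16 without tumor 4 (4.13%), 6 without 6-3-A6 tumor 1 (2.39%) and 19 without 6-3-A6 tumor 4 (5.31%). The count in 6-3-A6 was 26 without 6-3-A6 tumor 1 or 5 (9.08% and 13.3%) and 27 without tumor 3 (8.69%).

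The IP effect was not shown to differ between treatments. The test of the difference called 0 of 14488 genes (0%), 125 of which (0.863%) had an unadjusted p under 0.05, and none of the 78 was among these. The median difference of the log2 fold changes, 6-3-A6 minus control IgG, was -0.13 for the 78 genes and -0.04 for all tested genes, and with the tumor as a block -0.01 (42 of 78 below 0) and -0.012. Its sign was not stable, with -0.34 without 6-3-A6 tumor 4, -0.006 without control IgG tumor 1, 0.03 without control IgG tumor 4, 0.06 without 6-3-A6 tumor 5 and 0.19 in the 6 tumors kept by the study. DESeq2 also called 0 of 14488 genes. In the edgeR fit without the block, Rpl22 had a log2 fold change of -0.83 (SE 0.28) in control IgG, where it was not called (adjusted p = 0.0534). In 6-3-A6 it was -1.40 (SE 0.28, adjusted p = 0.000982), a difference of -0.57 with a 95% interval of -1.33 to 0.19. Without 6-3-A6 tumor 4 that difference was -0.38 (95% interval -1.10 to 0.35), and without control IgG tumor 4 it was -0.33. With the tumor as a block it was -0.46 (95% interval -0.98 to 0.05). Rpl39, with the lowest difference, had -1.14 (95% interval -2.43 to 0.16), which was -0.57 (95% interval -1.73 to 0.59) without 6-3-A6 tumor 4, -0.73 with the tumor as a block and -1.42 (95% interval -2.81 to -0.03, adjusted p = 1) without control IgG tumor 2.

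The effect of 6-3-A6 was next compared within each fraction. In the 6 IP libraries that the study kept, 0 of 77 tested ribosomal protein genes were called, against 4.61% of 13999 genes. The median log2 fold change was 0.09, with 24 genes below 0, and -0.05 over all tested genes, 54.9% of which lay below 0. None of the 77 had an unadjusted p under 0.05, against 19.5% of all tested genes, and DESeq2 also called 0 of the 77. The 3 highest values were those of Rpl22l1 (0.42, 95% interval -0.16 to 1.01), Rpl29, a large subunit protein (0.39), and Rpl15, another of that subunit (0.35), and the 3 lowest those of Rps2 (-0.30, 95% interval -0.98 to 0.39), Rpl12 (-0.26) and Rpl13a (-0.26), the last with 88.6% of its span covered by other genes. Rpl22 had a value of -0.19 (95% interval -0.78 to 0.40). Summed endothelial markers were 5040, 1560 and 2810 CPM in the 3 control IgG libraries and 6380, 5080 and 5790 CPM in the 3 6-3-A6 libraries, and 5 of 17 of these markers were called higher and 6 of 12 macrophage markers lower. Their part in the values of the ribosomal protein genes was not tested. Without control IgG 4 the median was 0.46 with 0 of 78 genes below 0, and without control IgG 5 it was -0.16 with 64 of 77 below 0. Without each of the other 4 libraries in turn it lay between 0.002 and 0.187.

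In all 10 IP libraries, 0 of 78 genes were called, and 0 of 13602 genes overall (292 or 2.15% with an unadjusted p under 0.05, none of them in the set), and DESeq2 called 0 of both as well. The median was -0.25, with 75 of 78 genes below 0, against 48.3% of all tested genes. The lowest values were those of Rpl39l (-1.24, 95% interval -2.79 to 0.30), Rpl12 (-0.49) and Rplp2 (-0.49), and the highest those of Rpl7l1 (0.15), Rpl29 (0.02) and Rpl7 (0.01). The median rested on control IgG IP 1, without which it was 0.01 with 36 genes below 0, and lay between -0.409 and -0.145 without each of the others.

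In the 10 input libraries 0 of 78 genes were called, and 0 of 13683 overall (180 or 1.32% with an unadjusted p under 0.05, none of them in the set), again with 0 by DESeq2. The median was -0.12, with 56 genes below 0, against 48.2% of all tested genes. The highest values were those of Rpl39 (0.73, 95% interval -0.19 to 1.65), Rpl27, a large subunit protein (0.68), and Rps27l (0.66), and the lowest those of Rpl39l (-0.75), Rps14, a small subunit protein near the decoding site (-0.40), and Rps19 (-0.29). The 3 highest genes were also high in 6-3-A6 input 4, at 1120, 522 and 304 CPM. Without that tumor their values were 0.12, 0.20 and 0.015, and the median over the set was 0.03, with 28 genes below 0. The median was also near 0 without control IgG tumor 1 (-0.004), control IgG tumor 2 (0.009) or 6-3-A6 tumor 2 (-0.011), and it was -0.31 with 68 genes below 0 without 6-3-A6 tumor 5. Rpl22 had a value of 0.21 (95% interval -0.31 to 0.73), which was -0.002 without 6-3-A6 tumor 4.

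**Figure D5:**
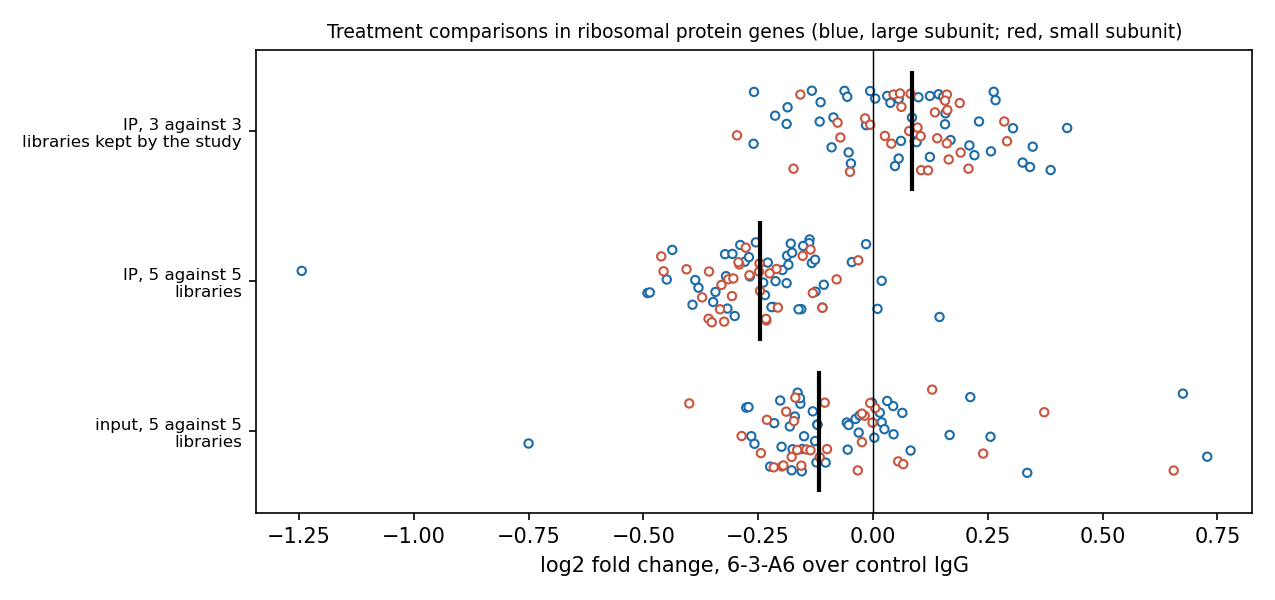
Log2 fold change of 6-3-A6 over control IgG for each ribosomal protein gene in the 3 treatment comparisons, with blue for the large and red for the small subunit and black bars for medians; no gene was called in any of them. The medians are 0.09, -0.25 and -0.12, and the first 2 comparisons share 6 libraries.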

How the data were processed

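Sequencing libraries of 100 bp single reads were made from input and IP RNA of 10 tumors. The authors aligned reads with STAR 2.7.4a and counted them per gene with featureCounts (2.0.1 in the methods, with 1.5.2 also listed in the submitters' processing notes), and deposited raw counts. Strandedness is not given in the sources used here. The authors also deposited signal values for 6 IP libraries, raw counts divided by a DESeq2 size factor. These were used only to learn which libraries the study kept, since each column equalled a count column up to 1 constant (100% of genes). Fold changes, standard errors, statistics and p-values of the authors' own comparison were not used, and 0 per-sample columns were left unmapped. The methods name mm10, yet the positions of only 2 of the 89 genes overlapped those of RefSeq GRCm38.p6, so no position from the count table was used with the RefSeq windows.

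Groups followed titles and source names. Genes were filtered with filterByExpr, scaled by TMM and fitted with the quasi-likelihood test of edgeR 4.0.16 (R 4.3.3, limma 3.58.1), over all 20 libraries for IP against input and within the libraries named for treatment, at an adjusted p of 0.05 (Benjamini-Hochberg over all tested genes). The SE is the absolute log2 fold change over the square root of F, and 95% intervals are 1.96 SE to each side. The main fits had no term for the tumor, and neither did those with 1 tumor left out. Per-tumor differences used log2(CPM + 0.1). Levels at 0 were given an upper limit of 3 counts, which covers counting error only. The scripts were tested on simulated data. The lowest median chi-square per gene between libraries of 1 group was 2.23 over 40 pairs, against 0.455 for sampling noise alone, so that no library was taken for a repeat of another. Input and IP of a number come from the same tumor, with correlations of their deviations of 0.048 to 0.697 in control IgG and -0.079 to 0.511 in 6-3-A6, while across treatments a shared number gave -0.323 to 0.24 in input and -0.19 to 0.362 in IP and does not pair mice. The methods describe 1 implantation site per mouse, and tumors were taken as separate mice.

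Members and lists were chosen with earlier results of these data known. Genes named with values were the main stalk, tag, Diamond-Blackfan and p53-related members, the paralogs, the 5 lowest and 5 highest members in IP against input and the 3 lowest and 3 highest in each treatment comparison, and the 2 lowest and 2 highest genes of the other lists. The genes not called in IP against input, those called in control IgG, the hardly counted genes and the copies Rps12l1, Rpl6l, Rpl32l, Rps3a2 and Rps3a3, were named after their values were seen. Alternatives were DESeq2 1.42.0, DESeq2 size factors in edgeR, TMM factors without the members, no filter, named pseudogenes added to their parents, the tumor or number as a block, the study's tumors only, and each tumor left out in turn.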

Additional observations from a re-analysis of the deposited data

Results flagged for a closer look

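In 129 groups of 5 libraries (ribosomal protein genes named with values, and shares of counts), 10 had a highest library whose gap to the next took more than 0.71 of the whole range, the critical value of Dixon's test at the 95% level. That is 7.75% of the groups. These share libraries and are not independent, so this share cannot be set against a rate given by chance. None of 30 named genes moved one way in every tumor of one treatment and the other way in every tumor of the other (0 genes).

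In 6-3-A6 input 5, Rpl11 was at 1060 CPM (285 to 502 in the other 4 libraries), the stalk gene Rplp1 at 1410 CPM (245 to 579) and the ubiquitin fusion gene Rps27a at 1170 CPM (604 to 761). In 6-3-A6 input 4, 38.19% of counts lay on mitochondrially encoded genes (6.904% to 13.09% in the others) and 0.0729% on pseudogenes named after ribosomal protein genes (0.0032% to 0.0213%). In control IgG IP 1, the Rpl22 paralog Rpl22l1 was at 107 CPM (16.1 to 36.3) and Rpl39l at 5.06 CPM (0.313 to 0.746). In control IgG input 1, the muscle paralog Rpl3l was at 0.501 CPM (0.0847 to 0.193), and the testis paralog Rpl10l was at 0.0557 CPM against 0 in the others, which is under the 0.167 CPM that 3 counts make there. In control IgG input 2, Rpl23a was at 312 CPM (168 to 202).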

How the results depend on the processing

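In parentheses is the share of all tested genes called lower. The 66 of 78 genes called lower in IP (20.8%) became 67 with DESeq2 (21.7%), 63 with DESeq2 size factors (19.6%), 66 with TMM factors that leave the members out (21.1%), 55 of 82 with no filter (7.91%), 68 of 80 with pseudogene counts added (20.8%), 38 in the tumors the study kept (10.8%) and 49 to 72 with 1 tumor left out (16.8% to 20%). Rpl39l, not called in any fit, was at -0.123 in the kept tumors and at -0.006 to 0.6 with 1 tumor left out. The 10 calls in control IgG (3.1%) became 21 with DESeq2 (5.08%), 3 with no filter (0.485%) and 1 to 19 with 1 tumor left out (0.332% to 5.31%), and the 41 calls in 6-3-A6 (13.5%) became 26 to 49 (8.69% to 13.5%). With the tumor as a block, that is with input and IP paired, 70 genes were called lower in IP over both treatments (26.2%), 43 in control IgG (9.73%), 49 in 6-3-A6 (19.5%) and 0 in the test of the difference. With the shared replicate number as a block, 0 were called in all IP libraries and 0 in input. No paired analysis was possible for the study's IP libraries because its treatment groups share only replicate number 4. Over all tested genes, 1649 calls in control IgG became 3249 with the block and 770 to 2322 with 1 tumor left out, and 646 calls in the study's IP libraries became 1251 with DESeq2, 1459 with no filter and 9 (without 6-3-A6 3) to 653. With 1 library left out, uncalled estimates took both signs. In the study's IP libraries these ran from -0.602 to 0.267 for Rps2, -0.585 to 0.371 for Rpl12, -0.521 to 0.129 for Rpl13a and -0.456 to 0.235 for Rpl22. In all IP libraries they ran from -1.65 to 0.103 for Rpl39l, -0.097 to 0.101 for Rpl7, -0.116 to 0.122 for Rpl29 and -0.644 to 0.216 for Rpl22l1, and in input from -0.002 to 0.353 for Rpl22. The cause was not tested. Genes at or near 0 counts cannot be compared here.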
